A study of Arabidopsis thaliana with 96 samples.

Results

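The 39 loci described here encode proteins of the cytosolic ribosome of Arabidopsis thaliana and were taken from the 32833 loci of the count table as a list of locus names. Of the 39 genes, 16 encode small-subunit proteins, 21 large-subunit proteins and 2 proteins of the stalk. Leaf discs came from Col-0 plants, the standard laboratory accession, harvested 30 days after transplanting. Plants grew under low, mid or high light (100, 250 or 500 micromol per square metre and second) with nitrate at 2, 5, 10 or 20 mM. Each of the 12 combinations held 8 plants with 1 polyadenylated-RNA library per plant, 96 in all, and all plants shared the same genotype. RefSeq symbols or synonyms were found for 23 members, and the other 16 are given by locus and protein family.

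A cytosolic ribosome is built from a small subunit, which reads the messenger RNA, and a large subunit, which forms peptide bonds, and its protein stalk recruits elongation factors. Making these proteins in equal amounts is among the largest costs of a growing cell, and in plants it is linked to sugar and nitrogen supply through the TOR kinase and its downstream S6 kinase. Nearly every ribosomal protein of Arabidopsis is encoded by more than 1 nuclear gene, so the same position in the ribosome can be filled from different paralogs.

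Total counts per library ran from 9461056 to 18125373, and all 39 members passed the filter on low counts, which left 19498 genes for testing. Levels are given as CPM, which are counts relative to the library total after TMM scaling (trimmed mean of M-values, a correction for differences in RNA composition), and changes as log2 differences with standard errors (SE). Adjusted p-values are from the quasi-likelihood test of edgeR with Benjamini-Hochberg adjustment over all tested genes. TMM factors moved with the groups, from a mean of 0.879 in low light with 10 mM to 1.21 in high light with 5 mM, and the 10 most abundant genes of a library took a mean of 4.38% to 10.2% of counts per group. The mesophyll markers RBCS1A, LHCB2.1, CAB3 and RCA were abundant, with group medians of their summed level between 10115 and 42974 CPM. The shoot meristem markers WUS and CLV3 and the root marker RHD6 were at 0 in every library. STM, the other shoot meristem marker listed, reached at most 0.157 CPM, in high light with 10 mM. The summed level of the 3 listed root markers ran from 4.54 to 18.1 CPM per library, so root markers as a list were not absent. In bulk tissue, fewer cells of a type and less RNA per cell cannot be told apart.

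A few libraries stood apart in the members' levels. The library labelled high light and 10 mM, replicate 8, had a summed member level of 10439 CPM, while the other 7 plants of its group lay between 3550 and 5289. Its summed mesophyll markers were at 48814 CPM against 11323 to 19599 in those 7 plants, and its summed dividing-cell markers at 80.2 against 16.7 to 35.9. Replicate 7 of mid light and 2 mM differed in the same way, with members at 7807 CPM against 4138 to 6266 mesophyll markers at 38957 against 5688 to 16938 and dividing-cell markers at 56.4 against 12.5 to 27.2. Whether these 2 libraries carry the right labels was not tested, and values that rest on them hold only as labelled. Replicate 5 of low light and 20 mM reached 10468 CPM against 6334 to 7310, with mesophyll markers at 48838 against 32790 to 44325 and dividing-cell markers at 84.8 against 25 to 85.0. Replicate 1 of low light and 5 mM reached 8065 CPM against 5143 to 6479, while its mesophyll markers were lower, at 16569 against 24084 to 41917, and its dividing-cell markers were at 25.3 against 23.9 to 84.9. Counts and directions that changed without these libraries are given both ways, a choice made after the members' levels were seen, since each was a library in which 8 or more members lay apart from their group.

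Per kilobase of coding sequence, the levels of the 39 genes spanned a wide range. The highest was AT5G20290, an S8e family gene, with a mean over all libraries of 473 CPM per kilobase, followed by RPL10A at 413 and AT2G43460, an L38e family gene, at 409. RPL10A (SAC52) is 1 of 3 members encoding L10, which sits near the tRNA-binding face of the large subunit. The lowest were RPL10B at 10.7 and RPL3B at 19.4 CPM per kilobase, although their paralogs RPL10A and RPL3A (324) were among the 9 highest. RPS6A and RPS6B, the genes for the small-subunit protein that S6 kinase phosphorylates, stood at 196 and 261. Spread between plants of a group was smallest for RPS18C, with a median coefficient of variation over the 12 groups of 12.7%, and largest for RPL3B (39.8%), RPS6A (38.1%) and RPL10C (33.3%). The gene models of 10 members overlap another gene (RPS15, AT3G09200, RPS13A, AT5G27850, RPS18C, RPSAA, PGY2, RPL24A, AT1G33120 and RPL3B), and as the strand setting of the counting is not given in the sources used here, their counts may include reads of the partner.

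The 250 bases before the annotated gene start were read for each member from the TAIR10.1 genome. They were searched on both strands for site II elements (TGGGCC or TGGGCT) and for the telo-box (AAACCCTA), both known from Arabidopsis ribosomal protein promoters. Overlapping matches were counted separately, so TGGGCCCA holds 2. A site II match was present in 26 of 39 member windows (66.7%), in 70.3% of the windows of 175 other cytosolic ribosomal protein genes and in 19.2% of 27443 protein-coding genes. The telo-box was present in 3 of 39 member windows (7.69%), in 24% of the other cytosolic ribosomal protein genes and in 4.49% of all. Only 21 of the 39 member windows held no exon of another gene, and how such exons bear on these shares was not tested. From the 21, the windows of 6 genes used in later comparisons are shown on the gene's own strand, with both kinds of match in capitals. They are RPS6A (chr4:15347805-15348054, minus strand), RPS6B (chr5:3260255-3260504, minus), RPS5A (chr3:3779546-3779795, minus), RPS5B (chr2:15649472-15649721, minus), RPL24A (chr2:15352014-15352263, minus) and RPS18C (chr4:6173462-6173711, plus).
RPS6A: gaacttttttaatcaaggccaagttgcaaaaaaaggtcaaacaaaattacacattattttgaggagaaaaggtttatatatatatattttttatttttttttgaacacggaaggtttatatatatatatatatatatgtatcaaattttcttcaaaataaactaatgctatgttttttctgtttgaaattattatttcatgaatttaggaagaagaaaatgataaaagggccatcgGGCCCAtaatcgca
RPS6B: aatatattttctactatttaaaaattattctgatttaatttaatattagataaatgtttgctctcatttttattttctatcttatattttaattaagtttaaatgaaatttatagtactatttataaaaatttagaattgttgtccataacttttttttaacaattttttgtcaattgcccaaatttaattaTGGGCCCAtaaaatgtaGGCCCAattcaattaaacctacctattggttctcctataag
RPS5A: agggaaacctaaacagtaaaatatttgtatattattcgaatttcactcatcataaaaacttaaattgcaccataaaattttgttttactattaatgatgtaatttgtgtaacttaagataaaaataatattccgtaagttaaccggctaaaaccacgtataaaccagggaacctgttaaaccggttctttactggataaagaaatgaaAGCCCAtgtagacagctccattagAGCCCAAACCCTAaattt
RPS5B: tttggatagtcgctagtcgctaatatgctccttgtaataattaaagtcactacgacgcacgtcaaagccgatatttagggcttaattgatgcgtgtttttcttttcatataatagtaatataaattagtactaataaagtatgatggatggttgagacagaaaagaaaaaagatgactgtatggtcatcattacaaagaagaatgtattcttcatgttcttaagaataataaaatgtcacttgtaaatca
RPL24A: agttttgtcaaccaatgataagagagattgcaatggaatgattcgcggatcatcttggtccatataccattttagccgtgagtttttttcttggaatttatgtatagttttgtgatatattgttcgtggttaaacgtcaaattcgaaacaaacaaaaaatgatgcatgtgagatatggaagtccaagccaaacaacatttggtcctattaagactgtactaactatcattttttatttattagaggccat
RPS18C: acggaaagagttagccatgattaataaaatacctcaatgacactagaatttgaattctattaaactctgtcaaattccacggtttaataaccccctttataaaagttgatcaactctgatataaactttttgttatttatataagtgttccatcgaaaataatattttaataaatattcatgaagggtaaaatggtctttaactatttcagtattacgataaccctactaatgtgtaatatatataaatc

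Within both pairs shown the windows differed. RPS6A held 1 site II match, starting 14 bases before the gene, and RPS6B held 3, starting 58, 56 and 41 bases before it. RPS5A, a gene known to be active in dividing cells, held 2 site II matches and a telo-box, and RPS5B held neither. AT1G33120 and PGY2, a pair whose windows are not shown, were alike, with 4 site II matches and no telo-box in each. RPL24A and RPS18C, the members with the largest rise and the smallest passing rise with nitrate, held no match to either motif. Of the genes paired with them below, RPL24B held 5 site II matches and RPS18A held no match, in windows with exons of another gene. The median log2 change from 2 to 20 mM was 0.62 over the 26 members with a site II match and 0.69 over the 13 without, as a description.

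Raising nitrate from 2 to 20 mM raised nearly all members. Averaged over the 3 light levels, 37 of 39 were higher and 0 lower at an adjusted p under 0.05 in edgeR, when 28.7% of all tested genes were called higher. The median log2 change of the members was 0.64 with a range of 0.12 to 0.98, while the median of all tested genes was -0.06. All 16 small-subunit genes passed, as did both stalk genes and 19 of 21 large-subunit genes. The summed level of the 39 genes ran from 3271 to 7807 CPM with a median of 4737 in the 24 plants at 2 mM, and from 4802 to 11367 CPM with a median of 6773 in the 24 plants at 20 mM. The dose groups overlapped, and on this TMM scale the lowest plant at 20 mM lay just above the median of those at 2 mM. As a percent of all counts, without TMM scaling, the medians were closer, at 0.536% and 0.611%. On that measure the lowest plant at 20 mM (0.413%) lay below the median at 2 mM.

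**Figure D1:**
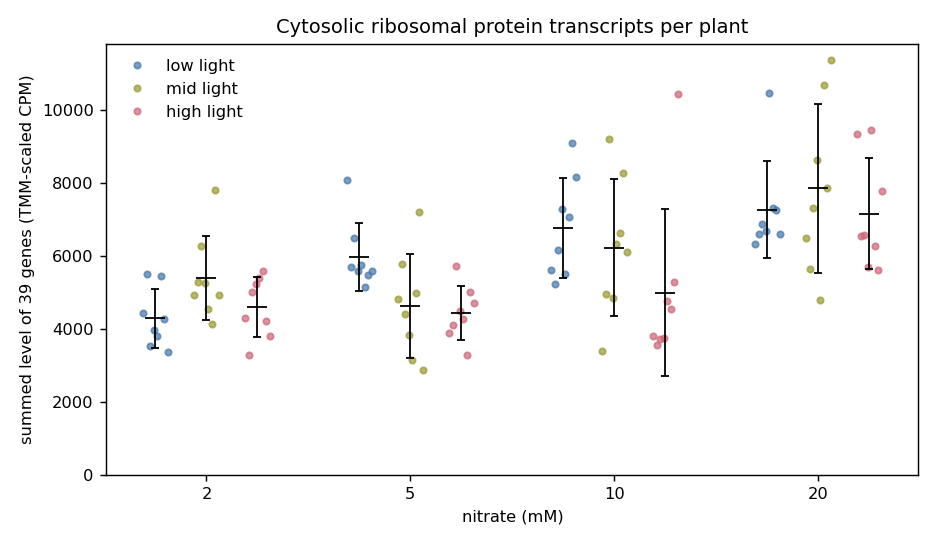
Summed level of the 39 genes (y axis, TMM-scaled CPM) in each of the 96 plants at 4 nitrate doses (x axis, mM), coloured by light; bars give the mean ± SD of 8 plants. At 20 mM the 3 light levels overlapped, with means of 7263, 7844 and 7156 CPM in low, mid and high light, and 1 plant of high light at 10 mM lay at 10439.

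The members with the largest changes came from both subunits. RPL24A, which encodes L24 at the interface between subunits, ran from 27.5 to 106 CPM with a median of 48.5 at 2 mM and from 60.5 to 164 with a median of 91.8 at 20 mM. Most plants at 20 mM lay above most at 2 mM, with some overlap, and the log2 change was 0.98 ± 0.13 SE (edgeR adjusted p = 2.03e-09). RPL5A, for the L5 protein that carries 5S rRNA into the large subunit, had medians of 181 and 324 CPM (ranges 101 to 388 and 237 to 626). It rose by 0.92 ± 0.13 on the log2 scale (edgeR adjusted p = 1.19e-08). RPS6A had medians of 101 and 173 CPM (ranges 59.7 to 231 and 96.6 to 423). Its groups overlapped widely, and the log2 change was 0.92 ± 0.16 (edgeR adjusted p = 1.34e-06). RPSAA, for the small-subunit protein Sa, rose by 0.88 ± 0.12. The stalk base P0, encoded by AT3G09200, had medians of 215 and 375 CPM (ranges 132 to 431 and 240 to 618) and rose by 0.84 ± 0.12. AT2G01250, an L30/L7 family gene, rose by 0.84 ± 0.11.

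A small group of members moved less. RPL10C, also known as senescence-associated gene SAG24, had medians of 129 CPM at 2 mM and 141 CPM at 20 mM (ranges 66.0 to 326 and 86.8 to 325), and its groups overlapped almost entirely. Its log2 change of 0.12 ± 0.16 did not pass (edgeR adjusted p = 0.514). RPL3B, the low-level copy of the peptidyl transferase centre protein L3, had medians of 21.2 and 23.7 CPM and a log2 change of 0.19 ± 0.18 (edgeR adjusted p = 0.351). RPS18C rose by 0.20 ± 0.06 (edgeR adjusted p = 0.00335), RPL24B by 0.35 ± 0.09 and RPS5A by 0.41 ± 0.08. RPL24B (STV1) is known in Arabidopsis for its part in reinitiation of translation after upstream open reading frames.

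**Figure D2:**
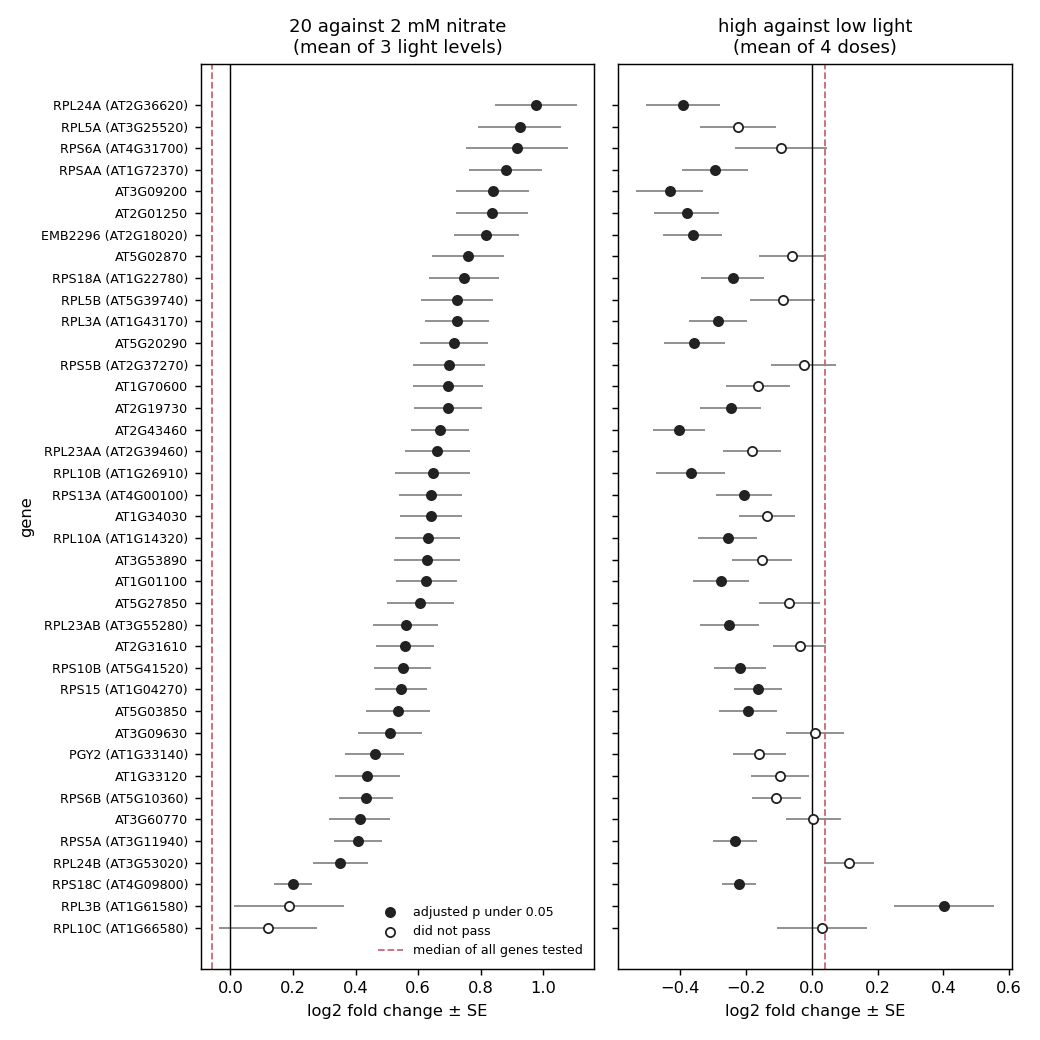
Log2 change ± SE of each of the 39 genes (y axis) for 20 against 2 mM nitrate and for high against low light (x axes); filled points passed an adjusted p under 0.05 and the dashed line is the median of all tested genes. With nitrate 37 genes passed upward, and with light 20 passed downward and RPL3B upward.

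The nitrate change was present at each light level. In low light 36 of 39 members were higher (3.54% of all tested genes were called higher) with a median log2 change of 0.73. In mid light 27 were higher (21.2% of all genes) with a median of 0.53, and in high light 36 (24.7%) with a median of 0.65. No member was called lower at any of the 3 light levels. In low light RPS6A had the largest change, from 59.7 to 134 CPM with a median of 89.2 at 2 mM to 131 to 399 with a median of 173 at 20 mM, a log2 change of 1.09 ± 0.28 (edgeR adjusted p = 0.00916). That call rested on replicate 5 of low light and 20 mM, without which RPS6A was at 0.85 ± 0.28 (edgeR adjusted p = 0.0647). Without that library 28 members were higher in low light (1.71% of all genes), with a median of 0.65. The difference of the 20 against 2 mM change between high and low light was called for 0 members by edgeR, limma-voom and DESeq2, and for 0 at an unadjusted p under 0.05 in edgeR (6.03% of all genes were called). Its median was -0.07 on the log2 scale, and 0.01 without replicate 5 of low light and 20 mM. Without library codes 1 to 24, RPL10C was called lower in that difference, and the median was -0.34.

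Averaged over the 3 light levels, the rise was spread over the upper doses, but the light levels differed. In low light the median summed level was 4123, 5645, 6609 and 6773 CPM at 2, 5, 10 and 20 mM. In mid light it was 5091, 4608, 6214 and 7584 CPM, and in high light 4643, 4369, 4174 and 6556 CPM. The step comparisons that follow average over light, and steps within 1 light level were not tested. Between 2 and 5 mM no member passed in edgeR, limma-voom or DESeq2, and 0 had an unadjusted p under 0.05 in edgeR (7.54% of all genes were called). The median log2 change was 0.08, and without library codes 1 to 24 RPL10C was called lower. Between 5 and 10 mM 9 members were higher (6.68% of all genes), with a median of 0.25, led by RPS6A at 0.46 ± 0.16 and RPL5A at 0.42 ± 0.13. Between 10 and 20 mM only AT2G43460 passed (0.133% of all genes were called higher), although 38 of 39 members had an unadjusted p under 0.05 and all 39 changes were above 0, with a median of 0.33. How the calls fell between these last steps changed with single libraries, sets of libraries and the fit. Without replicate 8 of high light and 10 mM 0 members were called between 5 and 10 mM (median 0.17) and 36 between 10 and 20 mM (median 0.41), when 3.5% of all genes were called higher at that step without the 4 libraries apart. Without library codes 1 to 24 it went the other way, with 35 called between 5 and 10 mM (8.95% of all genes were called higher) and 0 between 10 and 20 mM, where 0 of all tested genes were called. With the run of library codes as a term of the fit, 12 were called between 5 and 10 mM and 28 between 10 and 20 mM. That fit also called more of all genes higher at these steps, 12.8% and 2.43%.

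Scaling bears on these sizes. With library totals alone, without TMM factors, the median of all genes moved from -0.06 to -0.37 for 20 against 2 mM. Then 28 members were higher (15.8% of all genes were called higher), with a median of 0.33, and RPL10C, RPL3B and RPS18C were below 0. Relative to the median of all genes the members' median was 0.70 under either scaling. A change of scaling moves all genes by nearly the same amount, so this relative value could hardly change. It is therefore no test of the scaling. Within mid light the calls became 5 higher and 1 lower with library totals, and within high light 5 higher and 0 lower. In high light 12.2% of all genes were then called higher and 50.4% lower, so the higher count lay near the share of all genes. Within each of the 4 runs of 24 consecutive library codes, which hold 2 plants of every group, 30, 32, 37 and 30 members were higher and 0 lower, beside 20.4, 22.9, 21.1 and 8.38% of all genes called higher. The labels do not say whether these runs are a batch.

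Between low and high light 20 of the 39 genes fell and RPL3B rose. Averaged over the 4 doses, 20 of 39 members were lower (28.7% of all tested genes were called lower) and 1 was higher (33.8%) in high against low light. The median log2 change was -0.19, with a range of -0.43 to 0.40. The stalk gene AT3G09200 had a median of 325 CPM in the 32 plants of low light (164 to 597) and of 211 CPM in the 32 plants of high light (132 to 561), and fell by 0.43 on the log2 scale (SE 0.10, edgeR adjusted p = 0.000169). AT2G43460 had medians of 94.8 and 65.1 CPM (ranges 59.1 to 142 and 37.8 to 149) and fell by 0.41 (SE 0.08, edgeR adjusted p = 8.78e-06). RPL24A fell by 0.39 (SE 0.11), AT2G01250 by 0.38 (SE 0.10) and RPL10B by 0.37 (SE 0.10). In each of these genes the ranges of both light levels overlapped over most of their width.

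RPL3B was the exception. It had a median of 17.6 CPM in low light (8.10 to 55.2) and of 24.9 CPM in high light (11.4 to 48.9), and rose by 0.40 ± 0.15 on the log2 scale (edgeR adjusted p = 0.0182). That direction did not hold in every run of 24 library codes. The log2 change was -0.38 within the first run (edgeR adjusted p = 0.201), 0.55 in the second (0.0889), 0.61 in the third (0.00183) and 1.07 in the fourth (0.00632), and 0.76 without the first run (1.2e-05). Changes of RPS6A (-0.09 ± 0.14) and RPS6B (-0.11 ± 0.07) did not pass. Mid against low light gave 0 calls among the members by edgeR, limma-voom and DESeq2, with 0 at an unadjusted p under 0.05 in edgeR (19.8% of all genes were called) and a median of -0.01. High against mid light gave 13 lower (17.6% of all genes) with a median of -0.18. Without replicate 8 of high light and 10 mM 28 were lower (median -0.24). Without replicate 7 of mid light and 2 mM 7 were lower (median -0.15). The 17.6% belongs to the fit with all libraries, so these last 2 counts stand without a share of all genes.

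With library totals alone the median of all genes moved from 0.04 to 0.27 for high against low light, and the members' calls turned to 5 higher and 2 lower, with a median of 0.02. Relative to the median of all genes the members' median was -0.24 with TMM and -0.25 with totals. As for nitrate, this relative value could hardly change with the scaling and is no test of it. Within the 4 runs of library codes the members called lower were 17, 12, 1 and 0, and those called higher 0, 0, 1 and 1, beside 12.5, 26.6, 19.9 and 14.7% of all genes called lower. The members had medians of -0.34, -0.25, -0.19 and -0.10. By dose, library totals gave 10 higher at 2 mM, 1 higher and 1 lower at 5 mM and 1 lower at 10 mM. High against mid light became 1 higher and 0 lower.

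Light was also compared at each dose. At 2 mM 3 members were higher in high light and 0 lower (22% of all genes were called higher), with a median log2 change of 0.09. These were RPL3B at 0.83 ± 0.31, RPL10C at 0.66 ± 0.27 and RPL24B at 0.39 ± 0.15. At 5 mM 19 members were lower (21.6% of all genes) with a median of -0.41, and at 10 mM 13 were lower (10.8%) with a median of -0.43. At 20 mM 0 were called by edgeR, limma-voom and DESeq2 (3.78% of all genes in edgeR), 1 had an unadjusted p under 0.05 in edgeR, and the median was -0.02, or 0.06 without replicate 5 of low light and 20 mM. At 10 mM 35 members were lower with a median of -0.68 when replicate 8 of high light was left out, beside 16.4% of all genes without the 4 libraries apart.

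RPL24A had separate light groups at 5 mM and overlapping ones at 20 mM. Its median in low light and 5 mM was 73.3 CPM (62.4 to 98.1) and in high light and 5 mM 45.4 CPM (30.2 to 56.1), with no overlap between the 8 and 8 plants. The log2 change was -0.76 ± 0.23 (edgeR adjusted p = 0.00466). At 20 mM its medians were 91.8 CPM in low light (78.8 to 145) and 81.2 in high light (61.2 to 129), which overlapped. The plants of low light had reached 73.3 CPM at 5 mM, from 48.9 at 2 mM, while the median in high light was 45.3, 45.4 and 45.7 CPM at 2, 5 and 10 mM.

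**Figure D3:**
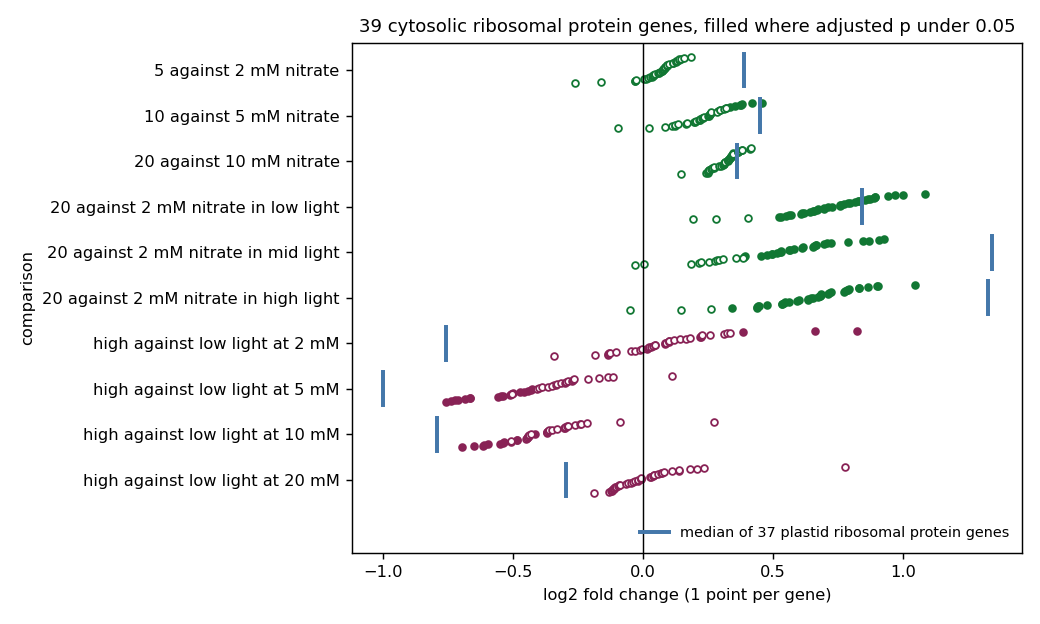
Log2 change (x axis) of each of the 39 genes, 1 point per gene, in 10 comparisons (y axis), green for nitrate and purple for light; points are filled where the adjusted p was under 0.05, and a blue line marks the median of 37 plastid ribosomal protein genes. The points for high against low light lay below 0 for 38 genes at 5 mM and at 10 mM, and on both sides of 0 at 2 and 20 mM.

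A comparison added after these values were seen set the light change at 5 and 10 mM against that at 2 and 20 mM. All 39 members had a difference below 0, with a median of -0.47, and 36 had an unadjusted p under 0.05. After adjustment 3 passed (1.97% of all genes were called lower), which were EMB2296 (-0.57 ± 0.18), RPL10A and RPS10B. As the contrast was built from the pattern seen in these data, this is not independent support. Without replicate 8 of high light and 10 mM 34 members passed (5.5% of all genes were called lower without the 4 libraries apart), and without replicate 1 of low light and 5 mM 0 passed. The joint test of all 6 interaction terms called 0 members in edgeR, the only tool with which it was run, with 8 at an unadjusted p under 0.05 and a smallest adjusted p of 0.0721 (12.7% of all genes were called).

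Ratios between paralogs within a library do not depend on the scaling of the libraries. Of 13 ratios, 11 differed between 20 and 2 mM and 9 between high and low light at an adjusted p under 0.05, in permutation tests of 100000 resamples adjusted over 26 tests. Within the 4 runs of library codes, each with fewer plants, 4, 5, 6 and 0 passed for nitrate and 2, 8, 5 and 1 for light. With 2 plants per group in a run, labels can be shuffled in few ways, which limits the smallest p. These counts therefore cannot show that a difference was absent from a run. Coding sequences of the pairs were 79.2% to 92.7% identical, except for AT1G33120 and PGY2, both for L9. These share 99.1% of bases and 54.2% of 50-base windows, so their counts are uncertain one against the other.

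L24 had the largest nitrate difference. RPL24A made up 20.6% to 41.1% of the counts of the RPL24 pair at 2 mM (mean 30.5 ± 5.76%, SD, n = 24) and 31.8% to 43.6% at 20 mM (40.2 ± 2.80%). The log2 ratio of RPL24A to RPL24B rose by 0.64, with 24 of 24 plants at 20 mM above the median at 2 mM (permutation adjusted p = 4.33e-05, from the smallest p the resamples can give, 1e-05). Between low and high light it fell by 0.54, with 28 of 32 plants below the low-light median (permutation adjusted p = 4.33e-05). In all 4 runs of library codes it was higher at 20 mM, by 0.52 to 0.85, and in high light it differed by -0.67, -0.67, -0.47 and -0.36. The share in low light was 35.0 ± 4.71% at 2 mM and between 40.6% and 41.1% at the other doses, while in high light it was 27.2, 27.05, 31.3 and 39.1% at 2, 5, 10 and 20 mM.

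The ratios of RPS18A to RPS18C and of RPS6A to RPS6B passed for nitrate and not for light. The log2 ratio of RPS18A, known from the pointed first leaf mutant, to RPS18C rose by 0.53 from 2 to 20 mM, with 24 of 24 plants above the median at 2 mM (permutation adjusted p = 4.33e-05). RPS18A was 29.8 ± 3.47% of this pair at 2 mM and 37.97 ± 4.25% at 20 mM (SD, n = 24). Its difference between light levels was -0.03 (permutation adjusted p = 0.716). The share of RPS6A in the RPS6 pair was 38.3 ± 4.13% at 2 mM and 45.6 ± 6.02% at 20 mM, a rise of the log2 ratio by 0.44, with 20 of 24 plants above the median at 2 mM (permutation adjusted p = 9.75e-05). Its difference between light levels was 0.01 (permutation adjusted p = 0.897). In all 4 runs of library codes both ratios were higher at 20 mM, by 0.49 to 0.63 for RPS18 and 0.30 to 0.53 for RPS6.

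L3 had the largest light difference. RPL3A made up 95.2 ± 2.42% of the RPL3 pair in low light and 92.6 ± 2.32% in high light (SD, n = 32), and the log2 ratio fell by 0.76, with 32 of 32 plants of high light below the low-light median (permutation adjusted p = 4.33e-05). This difference was not seen in the first run of library codes, where the mean log2 ratio was 3.59 in high and 3.55 in low light. It was -0.89, -0.91 and -1.26 in the other runs, and -1.02 with the first left out. From 2 to 20 mM it rose by 0.44 (permutation adjusted p = 0.0176). The ratio of RPL10A to RPL10C fell by 0.37 with light and rose by 0.45 with nitrate (permutation adjusted p = 0.00039 and 0.0009). RPS13A against AT3G60770, both for S13, fell by 0.24 with light and rose by 0.21 with nitrate. RPL5A against RPL5B fell by 0.15 and rose by 0.21. For S5 the ratio of RPS5A to RPS5B fell by 0.19 with light and by 0.28 with nitrate, and for L4 the ratio of AT3G09630 to AT5G02870 rose by 0.09 with light and fell by 0.25 with nitrate. All of these passed. Within the 4 runs the direction was the same for these nitrate differences, but RPS5A/RPS5B was at 0.04 in the first run for light and AT3G09630/AT5G02870 at -0.07 in the fourth. The latter no longer passed for light without the first run (0.03).

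**Figure D4:**
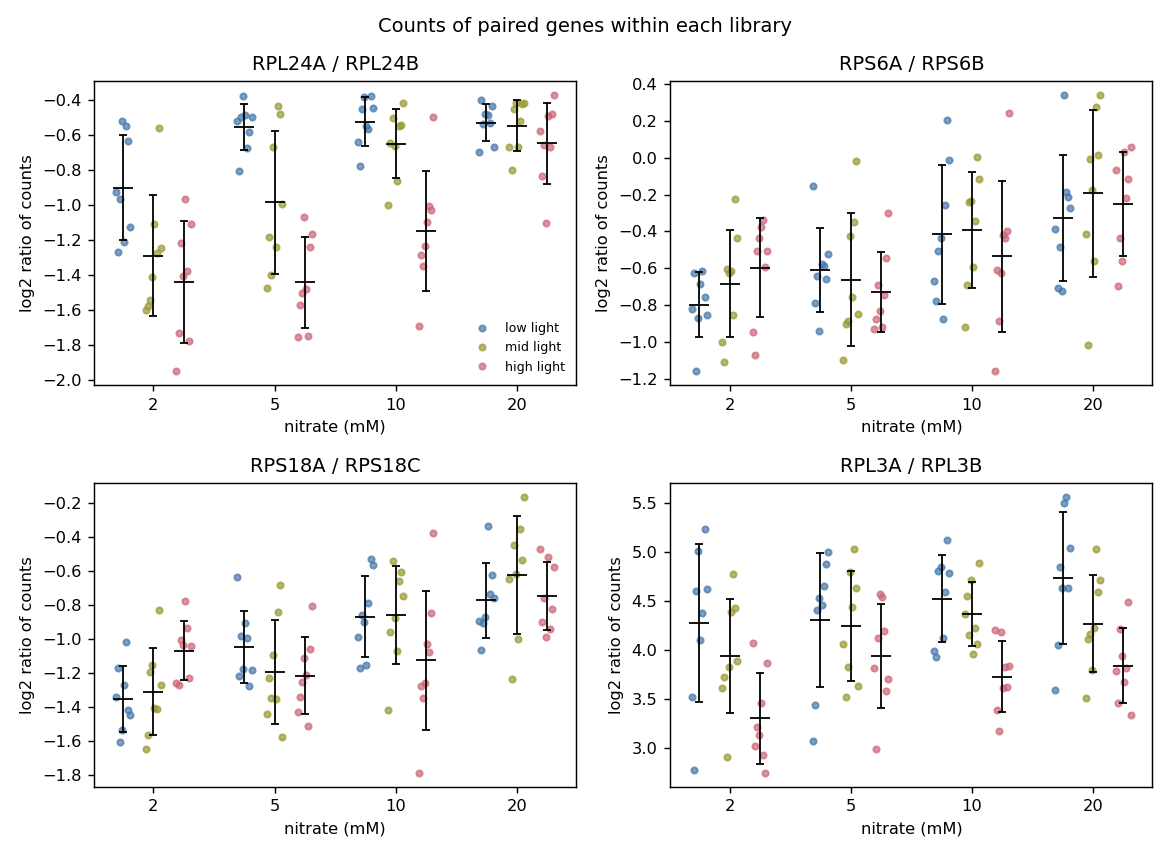
Log2 ratio of counts (y axes) of 4 pairs of paralogs in each of the 96 plants against nitrate dose (x axes, mM), coloured by light; bars give the mean ± SD of 8 plants. The mean ratio of RPL24A to RPL24B at 20 mM was -0.65 in high light and -0.53 in low light, while RPL3A to RPL3B stayed lower in high light at each dose, with means of 3.84 against 4.73 at 20 mM.

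Other cytosolic ribosomal protein genes, taken by RefSeq annotation as structural constituents of the cytosolic ribosome, moved alongside. Of 161 tested, 143 were higher and 4 lower at 20 against 2 mM (median log2 change 0.57). In high against low light 15 were higher and 70 lower (median -0.15). Of all tested genes 28.7% were called higher and 34.6% lower with nitrate, and 33.8% and 28.7% with light. Among the 161, AT4G25890, a 60S acidic protein of the stalk, rose by 1.03 ± 0.12 with nitrate, and AT3G28500 of the same family rose by 2.29 ± 0.26 with light. Of 37 nuclear genes for plastid ribosomal proteins, 37 were higher with nitrate (median 1.18) and 36 lower with light (median -0.70). In low light 3 of these 37 were called higher at 20 against 2 mM, although their median was 0.84, beside 36 of the 39 cytosolic members with a median of 0.73. The difference between both lists was not tested.

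The wider translation machinery moved less evenly. Of 33 translation factors, 21 were higher and 4 lower with nitrate (median 0.33), led by the poly(A)-binding protein genes PAB4 at 1.19 ± 0.14 and PAB8 at 0.83 ± 0.10 and the EF1A gene AT5G60390 at 0.79 ± 0.10. With light 6 were higher and 12 lower (median -0.09), when 33.8% of all tested genes were called higher and 28.7% lower. The 6 lay below the first share and the 12 near the second. ELF5A-1, an elongation factor gene, rose by 0.75 ± 0.10 with light and EIF4A1, an RNA helicase of initiation, fell by 0.31 (SE 0.06). Of 33 ribosome assembly factors, 8 were higher and 3 lower with nitrate (median 0.03), and 21 were higher and 0 lower with light (median 0.32). The 8 higher with nitrate were not above the 28.7% of all tested genes called higher. The pre-rRNA processing genes SWA1 and YAO rose by 0.69 ± 0.11 and 0.63 ± 0.11 with light. FIB1, for the rRNA methylase fibrillarin, rose by 0.52 ± 0.11 with nitrate.

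Of 14 TOR and SnRK1 signalling genes, 2 were higher and 8 lower with nitrate (median -0.18), and 5 were higher and 3 lower with light (median -0.01). Of all tested genes 28.7% were called higher and 34.6% lower with nitrate, and 33.8% and 28.7% with light, so the light counts lay near these shares. LST8-1, a subunit of the TOR complex, fell by 0.49 with nitrate (SE 0.06), and KIN10, the catalytic subunit of the energy-sensing kinase SnRK1, fell by 0.41 (SE 0.06). RAPTOR2, another TOR complex subunit, rose by 0.54 ± 0.09 with nitrate and fell by 0.34 (SE 0.08) with light. AT2G36010, the E2F factor listed as E2F3, rose by 0.97 ± 0.14 with nitrate and fell by 0.90 (SE 0.12) with light.

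Markers of several cell types moved with the same comparisons. The shares of all tested genes called are those given above, and 3.54% were called higher with nitrate in low light. All 8 dividing-cell markers were higher at 20 against 2 mM (median log2 change 1.34) and lower in high against low light (median -0.93). Their summed level was low, with group medians between 12.9 and 62.4 CPM and plants from 8.17 to 108 CPM. In low light their group medians were 30.1 CPM at 2 mM and 62.4 at 20 mM, and 1 of 8 was called higher. All 4 mesophyll markers were higher with nitrate (median 1.43) and lower with light (median -1.36), while in low light 0 of 4 passed for 20 against 2 mM (median 0.54). Of the 4 epidermis markers 2 were higher with nitrate and 4 lower with light, and of the 4 guard cell markers 1 was higher with nitrate and 1 lower with light. Of 5 senescence markers, SAG12 was too low to be tested, 2 were lower with nitrate, and 3 were higher and 1 lower with light. Of 4 vasculature markers 1 was higher and 1 lower with nitrate (median -0.04), and 2 were higher and 1 lower with light (median 0.08). Of 3 root markers 1 could be tested, and it was not called, at 0.10 with nitrate and 0.15 with light. The part of cell composition in the members' changes was not tested.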

How the data were processed

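RNA from leaf discs of 96 single plants in 12 groups of 8 was read with the Kapa stranded mRNA kit, per the labels' protocols. What the authors deposited is 1 table of unnormalized read counts by locus. Per the submitters' processing notes the authors used STAR 2.5.3a, featureCounts and the TAIR10 genome; annotation release and strand setting were not stated there. The deposited counts of all genes were fitted with edgeR 4.0.16 in R 4.3.3 (TMM, filterByExpr by group, robust quasi-likelihood, 12 group means, 84 residual degrees of freedom), with calls at an adjusted p under 0.05 over 19498 genes; limma-voom (limma 3.58.1) and DESeq2 1.42.0 were alternatives. CPM, log2 changes, percent shares and paralog ratios (count + 0.5) were computed here from the deposited counts, and paralog ratios were tested by two-sided permutation within strata of the other factor. The script was tested on simulated data. The members, gene lists and tests were chosen with earlier results of these data known. Members given with full values were those with the 5 largest and 5 smallest changes for light and for nitrate, the 3 largest and smallest for their interaction, RPS6A, RPS6B and the paralogs whose ratio passed; of each list up to 4 genes with the smallest p could be named. A gene's SE is its change divided by the square root of F. Labels give each library as 1 plant, and p-values measure the spread between plants. Library totals ran from 9461056 to 18125373 counts. Gene names, coordinates and the sequences came from RefSeq, TAIR10.1. Every pair of libraries within a group differed beyond sampling noise (chi-square over degrees of freedom at least 6.72).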

Additional observations from a re-analysis of the deposited data

Results flagged for a closer look

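In each group of 8 plants, the gap between the highest or lowest plant and its neighbour was set against the range of the group, for the summed level and for 28 members. Of 348 such groups 80 held a plant apart (23%), where chance gives about 1 in 20. The groups are not independent, since members move together within a library. No cause was tested.

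Replicate 8 of high light and 10 mM stood above the other 7 plants in 27 members, given here in CPM. The members apart were RPS6A (362), RPS6B (306), AT3G09630 (333), AT5G02870 (417), RPS18A (114), AT1G34030 (133), RPS13A (235), AT3G60770 (208) and RPS5A (219). Further members were RPS5B (120.2), RPL10A (499), RPL10B (13.7), RPL10C (174), RPL5A (563), RPL5B (426), AT1G33120 (111), PGY2 (173) and RPL3A (667). The remaining members were RPL3B (46.6), RPL24A (142), RPL24B (200.5), RPL23AA (332), RPL23AB (98.3), AT2G43460 (149), AT2G01250 (382), AT3G09200 (561) and RPSAA (375).

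Replicate 5 of low light and 20 mM stood above the other 7 plants in 21 members, given here in CPM. The members apart were RPS6A (399), RPS6B (315), AT3G09630 (302), AT5G02870 (378), RPS18A (127), RPS13A (238), AT3G60770 (212), RPS5A (259.9) and RPS5B (99.3). Further members were RPL10A (479), RPL10B (13.3), RPL5A (557), RPL5B (421), RPL3A (741), RPL24A (145), RPL24B (203), RPL23AA (309) and RPL23AB (98.4). The remaining members were AT2G01250 (399), AT3G09200 (597) and RPSAA (397). Its summed member level was 0.954% of all counts, against 0.545% to 0.688% in the others.

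Replicate 1 of low light and 5 mM stood above the other 7 plants in 11 members, given here in CPM. The members apart were RPS6A (227), AT3G09630 (240.1), RPS18A (97.7), AT3G60770 (195), RPL10B (14.3), RPL10C (532), RPL5B (280.3), RPL3B (55.2) and RPL24B (140.5). Further members were RPL23AA (243) and RPL23AB (111).

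Replicate 7 of mid light and 2 mM stood above the other 7 plants in 8 members, given here in CPM. The members apart were AT5G02870 (278), AT1G34030 (94.3), RPL5A (388), RPL3A (521), RPL24A (106), AT2G01250 (276), AT3G09200 (431) and RPSAA (261).

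Replicate 2 of low light and 2 mM stood above the other 7 plants in 3 members, given here in CPM. The members apart were AT3G60770 (166), RPL10C (247) and RPL3B (45.7). Its summed member level was 0.713% of all counts, against 0.335% to 0.504% in the others.

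Single members lay apart in further plants. RPSAA was at 201 CPM in replicate 6 of low light and 2 mM, against 94.9 to 140.0 in the others. PGY2 was at 156 CPM in replicate 7 of low light and 10 mM, against 98.4 to 123 in the others. RPL3B was at 49.3 CPM in replicate 3 of mid light and 2 mM, against 10.1 to 24.1 in the others. RPS6A was at 221.7 CPM in replicate 7 of mid light and 5 mM, against 53.4 to 125 in the others. RPL10C was at 242 CPM in replicate 2 of mid light and 5 mM, against 63 to 128 in the others. RPL10C was at 325 CPM in replicate 1 of mid light and 20 mM, against 86.8 to 175 in the others. PGY2 was at 55.7 CPM in replicate 2 of high light and 2 mM, against 83.6 to 104 in the others. AT1G34030 was at 80.1 CPM in replicate 3 of high light and 5 mM, against 45.3 to 60.9 in the others.

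The light change of RPL10A at 5 and 10 mM set against that at 2 and 20 mM was -0.57 on the log2 scale (edgeR adjusted p = 0.0451). That contrast was built from the pattern seen in the same data, so its p is not independent support. In the joint test of all interaction terms RPL10A had an adjusted p of 0.0973 in edgeR, and without replicate 1 of low light and 5 mM 0 members passed the contrast.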

How the results depend on the processing

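Averaged over light, the nitrate result held in most settings. For 20 against 2 mM, 37 calls came with DESeq2, limma-voom, RLE factors, no filter on low counts and either block. Leaving out each of the 4 libraries also gave 37, and library totals gave 28. The steps and the light comparisons moved. Between 5 and 10 mM the 9 calls became 19 with DESeq2, 5 with limma-voom, 14 with RLE factors, 0 with library totals, 0 without the 4 libraries apart and 35 without library codes 1 to 24. Between 10 and 20 mM the 1 call became 28 with the code set as a block, 4 with DESeq2, 0 with library totals, 0 with no filter, 35 without the 4 libraries and 0 without codes 1 to 24. Between 2 and 5 mM 1 member was called without the 4 libraries and 1 without codes 1 to 24. Within high and mid light the nitrate result was not stable, as the 36 and 27 calls became 5 and 6 with library totals.

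For high against low light, library totals turned the direction, with 7 calls (5 higher and 2 lower) and a median of 0.02. Code set 4 alone gave 1 call, which was higher, while its median stayed below 0 at -0.10. Sets 2 and 3 gave 12 and 2 calls. At 10 mM the 13 calls became 21 with the code set block, 1 with library totals, 22 with limma-voom, 8 with no filter, 35 without the 4 libraries and 7 without codes 1 to 24. At 2 mM the 3 calls became 10 with library totals, 1 with no filter and 5 without codes 1 to 24. At 5 mM the 19 became 2 with library totals and 10 without codes 1 to 24. At 20 mM 1 was called without codes 1 to 24. High against mid light gave 1 call with library totals, which was higher although the median stayed below 0 at -0.05, and 26 calls without the 4 libraries. Mid against low light gave 1 call without codes 1 to 24, and so did the nitrate change in high against low light. The added contrast of 5 and 10 against 2 and 20 mM had 3 calls, and 10 with the code set block, 0 with library totals, 0 with no filter, 32 without the 4 libraries and 1 without codes 1 to 24. Settings that leave libraries out change both the number of plants and which plants are kept, and the cause of these moves was not tested.

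With 1 of the 4 libraries left out at a time, calls ran from 0 to 13 between 5 and 10 mM, 0 to 36 between 10 and 20 mM, 13 to 35 for light at 10 mM, 7 to 28 for high against mid light and 0 to 34 for the added contrast. The other replicates were not left out in turn.

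Single members also turned sign, here as log2 changes. For light, library totals gave RPS6A 0.11, RPS6B 0.11, AT5G02870 0.15, AT1G34030 0.079, RPS18C 0.0039, RPS13A 0.010, RPS5B 0.19, RPL5B 0.13, AT1G33120 0.11, PGY2 0.054 and RPL23AA 0.037. With RLE factors and DESeq2, AT3G09630 was at -0.013 in both and AT3G60770 at -0.017 in both, and with the code set block AT3G60770 was at -0.00010. Within code set 1 AT3G09630 was at -0.066, AT3G60770 at -0.24, RPL10C at -0.23 and RPL3B at -0.38. RPS6A was at 0.0057 in set 2, AT3G09630 at -0.066 in set 3, and in set 4 RPS6A was at 0.044, AT5G02870 at 0.14, AT1G34030 at 0.037, RPS5B at 0.18, RPL5B at 0.044 and AT1G33120 at 0.084. Without codes 1 to 24 RPS5B was at 0.050, AT1G33120 at 0.0032 and the ratios RPS18A/RPS18C and RPL23AA/RPL23AB at 0.014 and -0.0042. For nitrate, library totals gave RPS18C -0.12, RPL10C -0.21 and RPL3B -0.16, and RPL10C was at -0.21 within set 2. The nitrate difference of RPL10A/RPL10B was 0.0040 with 5 added to each count, 0.075 without codes 1 to 24, and 0.014, 0.093 and 0.12 within sets 2, 3 and 4.

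Within code sets 1 to 4, 4, 5, 6 and 0 paralog ratios passed for nitrate, and within sets 1, 3 and 4, 2, 5 and 1 for light. Few label arrangements within a set limit the smallest p, so a low count cannot show that differences were absent. The light differences that turned sign were RPS6A/RPS6B (-0.18), RPS5A/RPS5B (0.043) and RPL3A/RPL3B (0.046) in set 1, RPS18A/RPS18C (0.010) and RPL23AA/RPL23AB (-0.058) in set 2, and RPS18A/RPS18C (0.13) and AT3G09630/AT5G02870 (-0.072) in set 4. For nitrate RPS18A/AT1G34030 was at -0.040 and -0.0036 in sets 1 and 2, and AT1G33120/PGY2 at 0.012 in set 1. All of these were added after seeing the data.

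Same-numbered plants did not deviate together in every pair: by number, from 24 (replicate 3) to 61 (replicate 1) of 66 pairs of groups correlated above 0.1, so the numbers were not taken to pair plants. Within code set 1, 240 of 264 pairs did (median r 0.41), against 974 of 3168 pairs of different sets and groups (median r -0.08). With the replicate block, calls were 24 between 10 and 20 mM and 9 for the added contrast, and within 1.5 times the main count in the other comparisons. The spread between plants and 8 plants per group limit what could be called. In simulated data a log2 change of 0.5 was recovered for 59.7% of 67 genes for 20 against 2 mM. For the difference of that change between light levels it was 13.4%. The simulation left 19298 genes unchanged, whereas 63.3% of tested genes were called for 20 against 2 mM in the deposited counts. Its adjusted threshold was therefore stricter, and these shares do not carry over to the members.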
